A study of Sus scrofa with 6 samples.

Results

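miR-23, miR-24 and miR-27 are microRNAs (miRNAs, short RNAs that guide the silencing of messenger RNAs) made from a pair of paralogous gene clusters. In each cluster a miR-23, a miR-27 and a miR-24 hairpin lie side by side and are processed from a shared primary transcript. Work in human and mouse cells links miR-23 and miR-27 to blood vessel growth, miR-27 to the fat cell regulator PPARG, and miR-24 to cell cycle genes. A miRNA recognises its targets mainly through its seed, bases 2 to 8 counted from the 5′ end, so names with the same seed are expected to share most targets. The members were chosen by name: ssc-miR-23a and ssc-miR-27a from the first cluster, ssc-miR-23b, ssc-miR-27b-3p and ssc-miR-27b-5p from the second, and ssc-miR-24-3p, which both clusters encode. The prefix marks the pig and is left out from here on. That is 6 of the 326 mature pig miRNAs listed in the deposited tables.

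The RNA came from pig oocytes stripped of their cumulus cells, all from prepubertal gilts killed at an abattoir. Oocytes of large follicles (LO, 3 to 6 mm across, drawn with a 20-gauge needle on a 10 mL syringe) were compared with oocytes of small follicles (SO, under 2 mm, drawn with a 23-gauge needle on a 5 mL syringe). Needle and syringe therefore changed together with follicle size and cannot be told apart from it. There were 3 small RNA libraries per group, described by the submitters as biological replicates; no source used here gives the number of animals or oocytes in each. Values are reads per 1000000 (RPM) of a total that the authors chose for each library, and each could be turned back into whole reads. No source used here states what that total counts; listed miRNAs made up 1.68% of it in LO replicate 2 and 2.33% to 3.03% in the other 5 libraries.

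Reads of listed miRNAs numbered 7755 to 42541 in LO, against 44964 to 55230 in SO, and LO replicate 2 was the shallowest. The 6 names took 273, 61 and 497 reads across LO libraries 1 to 3, against 522, 434 and 326 reads across SO libraries 1 to 3. With 0 reads a level of up to 6.50 RPM is possible in LO replicate 2 and of up to 1.37 RPM in SO replicate 3, taking 3 reads as the limit and counting error only. No miRNA that defines the oocyte was fixed, so the labelled cell type was not checked by a marker of its own. miRNAs of germ cells and gonad (miR-34c and both arms of miR-202) summed to 104 to 293 RPM in LO, against 133 to 260 RPM in SO.

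The mature sequences, as the deposited tables list them with T for U, are shown first because the comparison of the clusters rests on single bases. Capitals mark the seed.
miR-23a: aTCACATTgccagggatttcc
miR-23b: aTCACATTgccagggattacca
miR-27a: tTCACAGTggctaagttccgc
miR-27b-3p: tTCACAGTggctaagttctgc
miR-24-3p: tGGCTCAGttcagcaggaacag
miR-27b-5p: aGAGCTTAgctgattggtgaaca

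These names fall into 4 seed groups. miR-23a and miR-23b share one seed, and miR-27a and miR-27b-3p another that differs from it by a single base (T7G, from miR-23b to miR-27b-3p, counted from the 5′ end). miR-24-3p and the minor arm miR-27b-5p have a seed each. Shifted by 1 base, the miR-27 seed also overlaps that of miR-128, since bases 3 to 8 of miR-27 are bases 2 to 7 of miR-128, which had 9662 reads over the 6 libraries against 1078 for miR-27a and miR-27b-3p together.
miR-128: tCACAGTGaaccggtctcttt

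The paralogs are told apart by 1 base near the 3′ end, shown here in capitals.
miR-23a: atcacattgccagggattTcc
miR-23b: atcacattgccagggattAcca
miR-27a: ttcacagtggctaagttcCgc
miR-27b-3p: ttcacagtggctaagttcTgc

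The substitution was T19A from miR-23a to miR-23b and C19T from miR-27a to miR-27b-3p, with positions counted from the 5′ end. The first 18 bases are identical within each pair, so a read cut short before base 19 fits both names. No source used here says how the authors assigned such reads. No other listed miRNA lay within 1 mismatch of a member over those 18 bases. miR-24-3p is listed once and cannot be assigned to a cluster by its sequence.

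In the pig RefSeq gene table (Sscrofa11.1, used for gene names and order alone), MIR23A, MIR27A and MIR24-1 are neighbours and follow MIR181D and MIR181C. MIR24-2, MIR27B and MIR23B are neighbours too, and all 3 lie within C10H9orf3, the pig counterpart of a gene whose intron holds this cluster in humans. The 5p arms of the miR-24 hairpins differ between the clusters, but miR-24-1-5p and miR-24-2-5p each had 0 of 218890 listed reads, which allows a share of up to 0.00137%. The minor arm that did have reads was miR-27b-5p.

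miR-27b-3p was the most abundant member in all 6 libraries. It reached 210, 56.3 and 169 RPM across LO libraries 1 to 3, against 143, 106 and 79.5 RPM across SO libraries 1 to 3. LO replicates 1 and 3 lay above every SO library and LO replicate 2 below every one, so the groups overlapped. Its mean was 145 ± 79.7 RPM in LO, against 110 ± 31.9 RPM in SO (mean ± SD of 3 libraries each), which placed it at rank 24 in LO and rank 26 in SO among the 326 names. RPM follows both the number of molecules and how well each sequence is captured in a library, so levels of different miRNAs are given here as read levels.

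miR-24-3p had 109, 32.5 and 86.4 RPM across LO libraries 1 to 3, against 48.6, 56.3 and 29.3 RPM across SO libraries 1 to 3. miR-23b had 122, 32.5 and 80.0 RPM in LO, against 58.0, 55.8 and 31.5 RPM in SO. Both followed the same order as miR-27b-3p in LO, with library 1 highest and library 2 lowest. These names were nearly level with each other: miR-23b had more reads in 3 libraries, miR-24-3p in 2, and LO replicate 2 held 15 reads of each.

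The first-cluster names were scarcer. miR-23a had 26.0, 8.67 and 9.83 RPM across LO libraries 1 to 3, against 14.6, 4.17 and 5.48 RPM across SO libraries 1 to 3. miR-27a had 6.95, 2.17 and 2.81 RPM in LO, against 8.35, 3.65 and 2.74 RPM in SO. These values rest on few reads: 4, 1 and 4 of miR-27a in LO and 16, 7 and 6 in SO. miR-23a had more reads than miR-27a in all 6 libraries.

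miR-27b-5p, the arm released beside miR-27b-3p, had 1 read in LO replicate 3, 1 in SO replicate 3 and 0 in the other 4 libraries. Together it had 2 of the 1042 reads of both arms, or 0.192% (95% exact Clopper-Pearson interval 0.0233 to 0.692). Its mean log2(RPM + 1) differed by 0.075 between LO and SO (p = 1.0 by exact permutation, two-sided), a value that rests on those 2 reads.

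**Figure D1:**
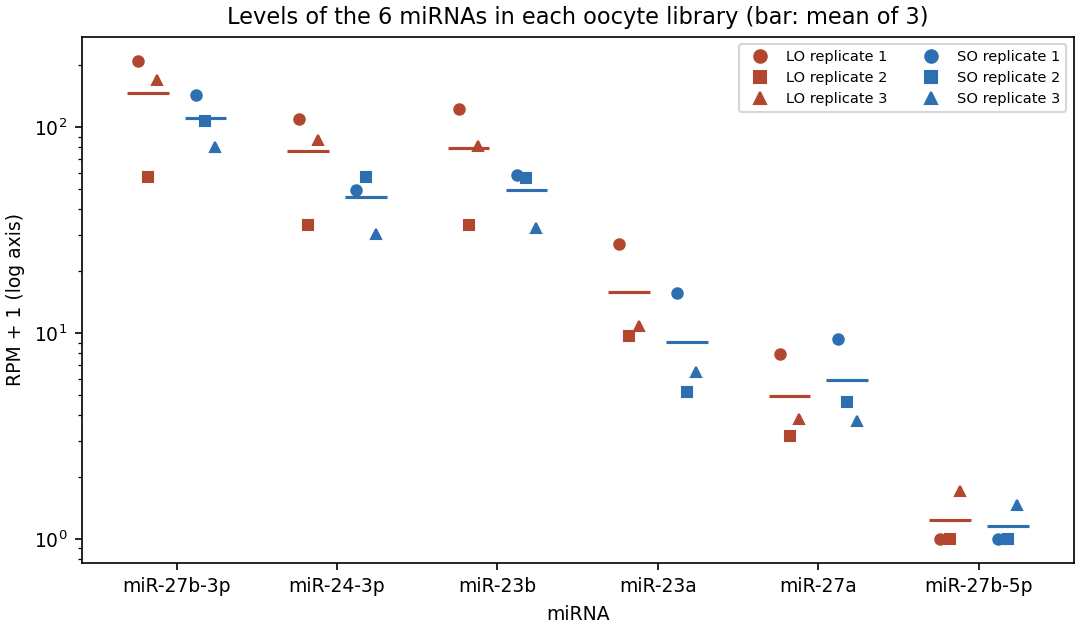
RPM + 1 on a log axis for each of the 6 miRNAs, 1 point per library, LO left of SO, with a bar at the mean of 3 libraries plus 1. miR-27b-3p stands highest, miR-24-3p and miR-23b lie level, and LO replicate 2 is the lowest LO library for 5 of the 6 names. For miR-23a and miR-27a its gap to LO replicate 3 is under 1 read of LO replicate 2. As a share of listed miRNA reads, LO replicate 3 was the lowest LO library for both.

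The comparison of the paralog clusters asked which of them supplies the oocyte's miR-23 and miR-27 reads. By the names assigned, the second cluster did in every library: miR-23b exceeded miR-23a and miR-27b-3p exceeded miR-27a in 6 of 6. The ratio of miR-23b to miR-23a reads, with 0.5 read added to each, was 4.55, 3.44 and 7.90 across LO libraries 1 to 3, against 3.91, 12.6 and 5.56 across SO libraries 1 to 3. Its mean log2 over the 6 libraries was 2.51 ± 0.70 (SD), a geometric mean of 5.69 (exact two-sided sign-flip permutation p = 0.0312, adjusted over the 2 paralog ratios 0.0312). For miR-27b-3p over miR-27a the ratio was 27.0, 17.7 and 53.7 in LO, against 16.6, 27.3 and 26.8 in SO. Its mean log2 was 4.70 ± 0.60 (SD, n = 6), a geometric mean of 26.0, with the same exact p of 0.0312, adjusted 0.0312, the smallest that 6 libraries can give. Such a p shows that the libraries lean the same way. A naming rule for short reads or a capture difference shared by all libraries would enter every ratio alike. Neither was tested.

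The same data can be read as the share of reads that carry the first cluster's name. miR-23a held 17.6%, 21.1% and 10.9% of the miR-23 reads across LO libraries 1 to 3, against 20.1%, 6.96% and 14.8% across SO libraries 1 to 3. miR-27a held 3.20%, 3.70% and 1.63% of the miR-27 reads in LO and 5.52%, 3.32% and 3.33% in SO. The miR-23a share was thus the larger in all 6 libraries, an order noticed in the values and given with no test. The counting intervals are wide in LO replicate 2, where 4 of 19 miR-23 reads were miR-23a (95% exact interval 6.05% to 45.6%) and 1 of 27 miR-27 reads was miR-27a (0.0937% to 19.0%).

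The balance of the clusters was then compared between follicle sizes. The log2 ratio of miR-23b to miR-23a averaged 2.32 ± 0.61 in LO, against 2.70 ± 0.87 in SO (mean ± SD of 3 libraries each), which differed by -0.38 (p = 0.6 by exact permutation, two-sided). For miR-27b-3p over miR-27a it averaged 4.88 ± 0.81 in LO, against 4.52 ± 0.41 in SO, which differed by 0.36 (p = 0.5 by the same exact test). Both adjusted p-values, over the 4 ratios compared between the groups, were 0.7. The groups overlapped for both, and 3 libraries against 3 cannot give a p below 0.1. An approximation for large counts, averaged over the 6 libraries with no read added, gave the SD of the log2 ratio from counting error alone. It was 0.51 for the miR-23 names and 0.82 for the miR-27 names, against 0.70 and 0.60 seen over the 6 libraries. LO replicate 2, with 1 miR-27a read, weighs most in the 0.82, and there the approximation is poor. At this depth and spread, shifts of this size could not be detected.

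**Figure D2:**
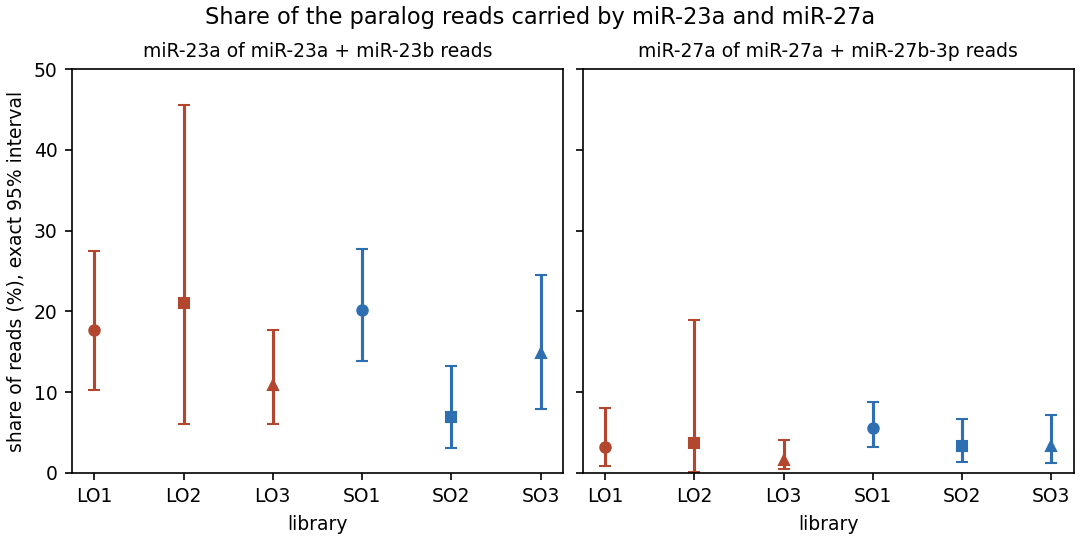
Percent of miR-23 reads named miR-23a (left) and of miR-27 reads named miR-27a (right) in each library, LO left of SO, with exact 95% Clopper-Pearson intervals. The miR-23a share runs from 6.96% to 21.1% and the miR-27a share from 1.63% to 5.52%, and the LO and SO libraries overlap in both.

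miR-24-3p was next set against its partners, with the paralogs summed so that the result does not depend on base 19. Its log2 ratio to the summed miR-23 names was -0.43, -0.33 and -0.057 across LO libraries 1 to 3, against -0.58, -0.090 and -0.34 across SO libraries 1 to 3. The group means were -0.27 ± 0.19 in LO, against -0.33 ± 0.24 in SO (mean ± SD of 3 libraries each), which differed by 0.062 (p = 0.7 by exact permutation, two-sided, adjusted 0.7). Over the 6 libraries the SD of this log2 ratio was 0.20, below the 0.28 that counting error alone would give by the same approximation. As a geometric mean there were 0.810 reads of miR-24-3p per miR-23 read, with 0.670 in the lowest library, SO replicate 1, and 0.961 in the highest, LO replicate 3.

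Against the summed miR-27 names the log2 ratio was -0.98, -0.83 and -0.99 in LO, against -1.64, -0.96 and -1.48 in SO. LO libraries lay close together, while SO replicates 1 and 3 were lower and SO replicate 2 fell among the LO values. The means were -0.93 ± 0.092 in LO, against -1.36 ± 0.35 in SO, which differed by 0.43 (p = 0.3 by exact permutation, two-sided, adjusted over the 4 ratios 0.7). This difference stayed between 0.29 and 0.63 when each library was left out in turn.

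**Figure D3:**
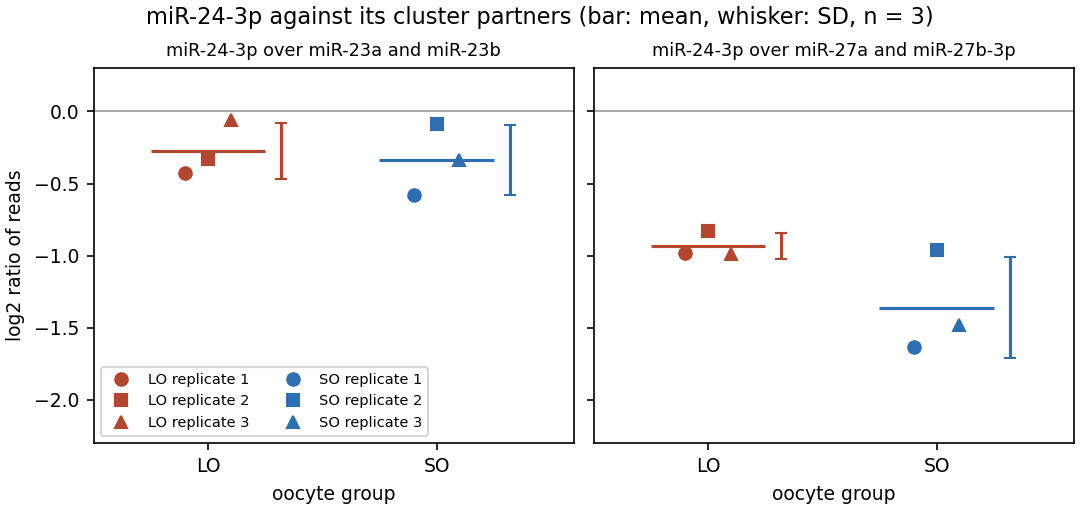
Log2 ratio of miR-24-3p reads to the summed miR-23 reads (left) and the summed miR-27 reads (right), 1 point per library, LO left of SO, with the mean as a bar and the SD as a whisker. The LO and SO libraries overlap in both panels; against miR-27 the LO mean is -0.93 and the SO mean -1.36.

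The comparison of LO with SO was made across all miRNAs with enough reads. Of the 6 members, 4 passed the filter on low counts, and miR-27a and miR-27b-5p did not. By limma on log2(RPM + 1), with Benjamini-Hochberg adjustment over the 104 miRNAs tested, 0 of the 4 passed a false discovery rate (FDR) of 0.05, beside 0 of 104 (0%) for all tested miRNAs. At an unadjusted limma p under 0.05 there were also 0 of the 4, beside 4 of 104 (3.85%). edgeR's quasi-likelihood test and DESeq2 on the recovered reads each called 2 miRNAs (1.92%), none of them a member. In bulk RNA of this kind, fewer cells of a type and less RNA per cell cannot be told apart.

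All 4 had positive log2 fold changes, as did 72 of the 104 tested miRNAs (69.2%), and the median was 0.59 for the 4 and 0.29 for the 104. miR-23a averaged 14.8 ± 9.72 RPM in LO, against 8.09 ± 5.69 RPM in SO, a log2 fold change of 0.81 (SE 0.71, limma's 95% interval -0.58 to 2.20, FDR 0.780). miR-24-3p averaged 76.1 ± 39.5 RPM in LO, against 44.7 ± 13.9 RPM in SO (mean ± SD of 3 libraries each), a log2 fold change of 0.64 with an interval of -0.46 to 1.73 and the same limma FDR of 0.780. miR-23b averaged 78.0 ± 44.6 RPM in LO, against 48.4 ± 14.7 RPM in SO, a log2 fold change of 0.54 with an interval of -0.55 to 1.62. miR-27b-3p had the lowest of the 4, at 0.24 (SE 0.51, interval -0.76 to 1.25, limma FDR 0.861), under the median of all tested miRNAs. The intervals run from a decrease to an increase of more than 1 log2 unit for each, so neither equality nor a difference was shown.

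miR-27a, outside the fit, averaged 3.97 ± 2.59 RPM in LO, against 4.91 ± 3.01 RPM in SO, and its mean log2(RPM + 1) differed by -0.25 (exact two-sided permutation p = 0.6). Of the 4 tested members, 0 had group ranges apart, beside 4 of 104 (3.85%). miR-23b, miR-24-3p and miR-27b-3p were each higher in LO replicates 1 and 3 than in any SO library, that is, 3 of the 4 tested members. That order, noticed in the values, was seen for 46 of the 104 tested miRNAs (44.2%), and no difference between these shares was tested.

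The fold changes moved with single libraries of either group. Without LO replicate 2 the log2 fold changes were 1.15 for miR-24-3p (limma FDR 0.0522), 1.06 for miR-23b (0.0694), 1.09 for miR-23a (0.182) and 0.82 for miR-27b-3p (0.115). In that fit 18 of 104 miRNAs (17.3%) passed FDR 0.05, all higher in LO and none a member, and the median of all tested miRNAs was 0.62. Without LO replicate 1 they were 0.29 for miR-24-3p, 0.13 for miR-23b, 0.34 for miR-23a and -0.12 for miR-27b-3p, beside a median of -0.064. Without SO replicate 3 miR-24-3p was at 0.37, miR-23b at 0.26 and miR-27b-3p at 0.033, and miR-23a ran from 0.49 without SO replicate 2 to 1.29 without SO replicate 1. With TMM scaling, which moved the median of all tested miRNAs to 0.049, they were 0.39 for miR-24-3p, 0.29 for miR-23b, 0.56 for miR-23a and -0.00346 for miR-27b-3p. As a share of the listed miRNA reads, the 6 names took 1.56%, 0.787% and 1.17% across LO libraries 1 to 3, against 0.945%, 0.965% and 0.640% across SO libraries 1 to 3. On that scale LO replicate 2 lay among the SO libraries, whereas the summed RPM of the 6 names was 132 in LO replicate 2 and 149 to 273 in the SO libraries.

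**Figure D4:**
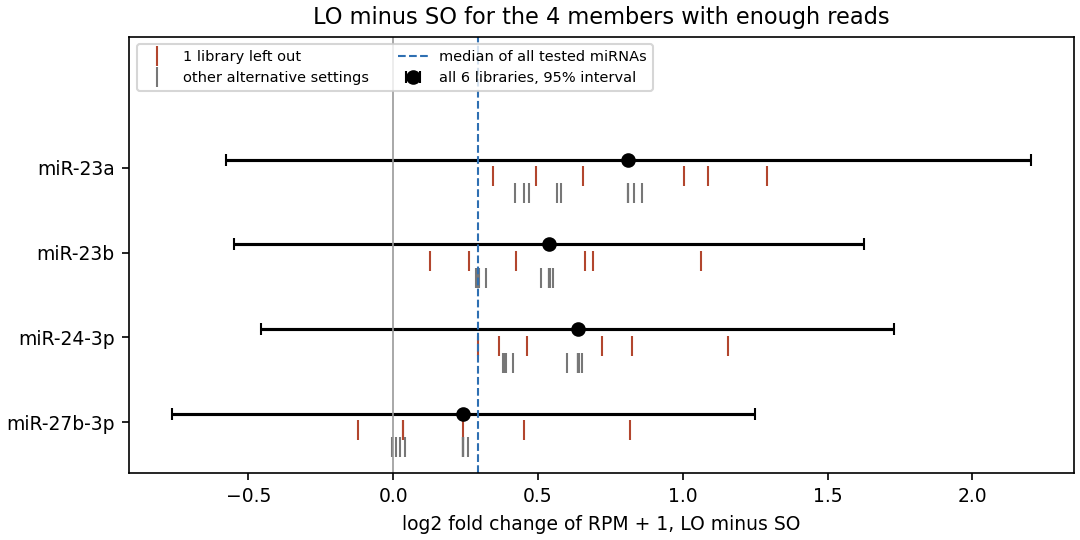
Log2 fold change of RPM + 1, LO minus SO, for the 4 tested members, with limma's 95% interval from all 6 libraries, the values with 1 library left out, the other alternative settings and the median of all tested miRNAs. All 4 intervals cross 0, and miR-27b-3p at 0.24 lies below the median of 0.29.

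Across libraries, miR-23b, miR-24-3p and miR-27b-3p had levels that ranked the libraries much alike. Pearson's r of log2(RPM + 1) over the 6 libraries was 0.985 between miR-23b and miR-24-3p, 0.947 between miR-23b and miR-27b-3p, and 0.909 between miR-24-3p and miR-27b-3p. Among the 103 other tested miRNAs, miR-24-3p took place 4 for miR-23b, and miR-27b-3p took place 19 for miR-23b and 26 for miR-24-3p. miR-23b had a median r of 0.817 with those 103, so these r values are a description of 6 points that share their scaling. By r, miR-24-3p was most like miR-497 (0.993), miR-23b (0.985) and miR-31 (0.982). miR-23b was most like miR-676-3p (0.992), miR-497 (0.990) and miR-31 (0.986). miR-27b-3p was most like miR-34a (0.985), miR-148b-3p (0.985) and miR-320 (0.982).

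miR-23a had r = 0.695 with its seed partner miR-23b, place 30 of 103, beside a median r of 0.606 with the other tested miRNAs. Its most alike were miR-143-3p (0.929), miR-29c (0.921) and miR-29a (0.874). miR-181c, encoded next to the first cluster, had 19 reads in all, 6 in LO, against 13 in SO, and miR-181d-5p had 2, too few to compare with miR-23a.

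miRNAs of other follicle cells were measured beside these levels. miR-21, miR-31, miR-132, miR-212, miR-224, miR-383 and miR-503, fixed as granulosa and cumulus cell markers, summed to 900, 258 and 606 RPM across LO libraries 1 to 3, against 530, 397 and 298 RPM across SO libraries 1 to 3. All 7 were detected, although miR-212, miR-224 and miR-383 had at most 2 reads each. In LO the marker sum took the same order as miR-23b, miR-24-3p and miR-27b-3p, and so did the germ cell and gonad sum, at 293, 104 and 199 RPM. Most of the germ cell and gonad sum was miR-202-5p, at 247, 60.7 and 169 RPM across LO libraries 1 to 3. The other names of that list did not take this order. miR-34c had 27.8, 30.3 and 26.0 RPM in LO, and miR-202-3p was lowest in LO library 3, at 4.21 RPM. Most of the granulosa sum was miR-21 and miR-31, the only names of that list that took this order. miR-21 had 415, 102 and 284 RPM in LO, against 309, 179 and 167 RPM in SO. miR-31 had 476, 147 and 306 RPM in LO, against 206, 204 and 116 RPM in SO. By contrast, miR-503 had 6.95, 6.50 and 14.7 RPM in LO, against 13.6, 12.0 and 13.7 RPM in SO. Endothelial markers, both arms of miR-126, summed to 17.4, 10.8 and 9.13 RPM across LO libraries 1 to 3, another order, and 3.20 to 14.1 RPM in SO. Theca, stroma and smooth muscle markers summed to 132, 73.7 and 75.1 RPM across LO libraries 1 to 3, against 44.8 to 100 RPM in SO. This sum also had LO library 1 highest and library 2 lowest. Libraries 2 and 3 lay within 1 read of library 2, or 2.17 RPM. As a share of listed miRNA reads the sum was 0.435%, 0.438% and 0.252%, with library 2 highest. miR-199a-5p, miR-199b-3p and miR-199b-5p took the order of the sum. miR-143-3p (69.5, 30.3 and 30.2 RPM), miR-199a-3p (22.6, 26.0 and 21.8 RPM) and miR-145-5p did not. miR-145-3p had no reads in LO, and 1 of the 8 names, miR-214, had 0 reads in all libraries. Blood cell markers, 6 of 7 names, summed to 7.02 to 10.8 RPM in LO, against 60.0 RPM in SO replicate 1, which stood apart, and 3.13 and 5.48 RPM in SO replicates 2 and 3. Most of the sum in SO replicate 1 was the arms of miR-142, at 41.8 RPM (3p) and 11.5 RPM (5p). There miR-451, miR-144, miR-486 and miR-150 had 2.61, 1.04, 0.522 and 2.61 RPM. Of these, miR-451, miR-144 and miR-486 were each higher in an LO library. The part of RNA from other cells in the levels of the 6 members was not tested.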

How the data were processed

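Each deposited table gives a name, a mature sequence and 1 value for 326 pig miRNAs. The file headers call the value TPM, but each was a whole multiple of 1 step per library whatever the sequence length, so the deposited values were read as RPM, scaled by the authors to a total larger than the listed reads. Of the 1135 values above 0, 100% were whole reads once divided by that step (tolerance 0.02 read). Bowtie2 2.2.2, cutadapt, bcl2fastq, edgeR and the build Sscrofa10.2 stand in the submitters' processing notes, without roles. No source used here says whether molecular identifiers were counted.

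LO and SO were compared on log2(RPM + 1) by limma (version 3.58.1, R 4.3.3) with its trend option and group as the only term, on the 104 miRNAs kept by filterByExpr. The SE of this fit follows the trend with abundance. Such fold changes understate the change of low miRNAs. edgeR 4.0.16 and DESeq2 1.42.0 on the recovered reads were alternatives. Ratios within a library used reads plus 0.5 and exact permutation, two-sided. P-values measure the spread between these libraries, since no source says that they came from separate animals. For limma that spread was pooled over the tested miRNAs by abundance, so its p-values and intervals do not measure each member's own spread. The pooling treats the miRNAs as independent, although a shift of a whole library moves many of them together. Replicates of a group differed by more than counting noise (chi-square per degree of freedom 2.71 to 16.8). The scripts were checked on simulated data, where the changes set for the fits were larger than the fold change of any member. That check does not cover effects as small as those of the members.

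All 6 members and, for each tested one, the 3 tested miRNAs of highest Pearson r were named by rule; miR-128, miR-181c, miR-181d-5p and the order of LO replicates 1 and 3 were added with values seen. The members and lists were chosen with earlier results of these data known. Intervals and limits cover counting error only.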

Additional observations from a re-analysis of the deposited data

How the results depend on the processing

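The count of members past FDR 0.05 was 0 of those tested in the 17 alternative settings of the LO and SO comparison. Over all tested miRNAs the count was 0 except with edgeR (2 under TMM, 2 under DESeq2 size factors), DESeq2 (2) and leave-one-out, which gave 0 to 18. The log2 fold changes of miR-23a, miR-23b and miR-24-3p kept their sign in every setting that gave one. That of miR-27b-3p turned to -0.00346 with TMM and -0.12 without LO replicate 1, and ran up to 0.82 with 1 library left out. With miR-23a and miR-23b summed the log2 fold change was 0.58, and with miR-27a and miR-27b-3p summed it was 0.22.

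The paralog log2 ratios stayed between 2.28 and 2.65 for miR-23b over miR-23a and between 4.49 and 4.83 for miR-27b-3p over miR-27a with 1 library left out; 5 libraries cannot give an exact permutation p below 0.0625. With 1 library left out, the LO minus SO difference ran from -0.75 to 0.10 for miR-23b over miR-23a, from -0.075 to 0.73 for miR-27b-3p over miR-27a, from -0.059 to 0.18 for miR-24-3p over miR-23, also negative at -0.045 without LO replicate 3, and from 0.29 to 0.63 for miR-24-3p over miR-27. LO and SO libraries of the same replicate number had r of the deviations of -0.34, -0.22 and 0.08, against -0.29 to 0.43 for the other pairs. Deviations from means of 3 libraries cannot exclude a pairing. With the replicate numbers as a block in limma the count was 0, smallest FDR 0.853. The ratio differences keep their size under that block by the balanced design, so this is no check of them. Depth limits miR-27a and miR-27b-5p most, with 38 and 2 reads in all.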

Other observations

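The ratio of miR-27a to miR-23a reads, with 0.5 read added, was 0.290, 0.333 and 0.310 across LO libraries 1 to 3, against 0.579, 0.882 and 0.520 across SO libraries 1 to 3, so the LO and SO ranges did not overlap. Among the 8 ratios between members looked at, it alone had ranges apart, and no such share was computed for ratios of other miRNAs. Full separation of 3 libraries from 3, in either direction, occurs in a fraction 0.1 of the possible groupings. The ratio was noticed in the values, rests on 9 miR-27a reads in LO, against 29 in SO, and was not tested. By the approximation for large counts used above, counting error alone would give an SD of 0.93 for its log2, against 0.63 seen over the 6 libraries. LO replicate 2, with 1 miR-27a read and 4 miR-23a reads, weighs most in the 0.93, and there the approximation is poor.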
